A study of Mus musculus with 20 samples.

Results

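The 7 genes described here are Akr1c13, Bloc1s2, Txndc15, Zfp982, Gfod1, Cpeb2 and 4933404O12Rik, out of 17836 genes named by the arrays. They were chosen by their measured levels, which set RAG-2-deficient pre-B lines apart from other lines in earlier results of these data, so their differences from RAG-2-deficient lines are given as a description with no test. All probe sets whose annotation names 1 of these genes and no other were taken, which gave 14 probe sets. Of these, 11 passed the filter on low signal in the lines and 3 did not, and 7 passed it in bone marrow and 7 did not. A gene is represented below by its probe set with the highest mean level in the lines.

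Transcripts were measured on 20 Affymetrix mouse arrays in 7 groups of mouse pre-B cells. The lines were pre-B cells transformed by v-abl, a viral kinase oncogene, and all of them were kept in 3 uM STI571 (imatinib, an inhibitor of that kinase) for 48 hours. They were wild type (n = 3), Artemis-deficient (n = 3), Artemis- and ATM-deficient (n = 2, each on 2 arrays that were averaged), Artemis-deficient with a dominant negative IkB (n = 3, called IkB-DN lines) and RAG-2-deficient (n = 3), the last being the study's control. The other cells came straight from bone marrow of mice that all carried an IgH transgene, 2 of them Artemis-deficient and 2 RAG-1-deficient, with the RAG-1-deficient ones as the control. The sources used here do not give the strain of the mice or the promoter that drives the dominant negative IkB. The titles of the RAG-2-deficient lines have the letters Bcl, and that of wild type line 3 the letters ATM, and no label explains either.

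RAG-1 and RAG-2 together form the recombinase that cuts DNA at antigen receptor genes in developing lymphocytes, and v-abl lines are known to start this cutting when the kinase is inhibited. Artemis opens the hairpin ends that the cut leaves, so cells without it keep unrepaired breaks. ATM is a kinase that signals such breaks, and IkB holds the transcription factor NF-kB in the cytoplasm. The study asked which genes respond to these breaks, with cells that cannot make them as the control. The 7 genes are not a pathway. They encode a reductase, a subunit of lysosome-related complexes, a thioredoxin domain protein, a zinc finger protein, an oxidoreductase domain protein, a protein that binds messenger RNA and, for 4933404O12Rik, a long non-coding RNA in RefSeq.

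The lines had the transcripts of B lineage cells: 12 of 12 measured B lineage markers were above the array median in every sample. No measured T and NK, erythroid or dendritic marker was above it throughout any line group. Neutrophil and monocyte markers were above the median in all samples of a group for 2 of 9 genes in wild type, 2 in Artemis-deficient, 2 in Artemis- and ATM-deficient, 4 in IkB-DN and 1 in RAG-2-deficient lines, and their summed signal reached at most 906.7, in an Artemis- and ATM-deficient line. As a check of the labels, 1 probe set of Atm averaged 5.46 ± 0.03 on the log2 scale (SD, n = 2) where ATM is lacking. The RAG-2-deficient control had 7.63 ± 0.02 (SD, n = 3). Another probe set of Atm differed less, with 6.83 ± 0.004 (SD, n = 2) where ATM is lacking. Its level in the RAG-2-deficient control was 7.52 ± 0.12 (SD, n = 3). Rag2 had a level of 7.03 ± 2.04 (SD, n = 3) in its own deficient lines, and whether its probe set lies in the deleted stretch was not examined here, so it does not check that label. Xist, the transcript of the inactive X chromosome, differed between lines. Its log2 level was 11.65 to 12.09 in wild type lines and 11.41 to 11.71 in Artemis- and ATM-deficient lines, against 4.10 to 5.64 in RAG-2-deficient lines. IkB-DN lines had 4.15 to 4.61, and 1 Artemis-deficient line reached 11.90 while another had 4.52. The part of Xist status in the results below was not tested. The IkB-DN samples correlated with each other across probe sets at 0.976 to 0.983, close to the 0.982 to 0.984 of technical arrays of one line, against 0.903 to 0.948 within the other groups. The labels call them biological replicates, and if they come from 1 clone, the p values that involve them are too small. The fit shares 1 spread over all 5 line groups, so p values between the other line groups could then be too small as well.

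The data go against a common label for the 7 genes. Akr1c13, Bloc1s2 and Txndc15 were lower in all 3 RAG-2-deficient lines than in all 11 other lines. Zfp982, Gfod1, Cpeb2 and 4933404O12Rik also differed among the other lines, and for each of them wild type lines had the smallest mean difference from RAG-2-deficient lines of the 4 groups. For Cpeb2 and Gfod1 this order hung on single samples. The wild type value of Cpeb2 was -1.79 without wild type replicate 2, beside -1.35 in Artemis- and ATM-deficient lines. That of Gfod1 was -1.43 without wild type replicate 1, beside -1.38 in IkB-DN lines. In 4 of the 7 genes the 11 other lines did not overlap the 3 RAG-2-deficient lines, namely the first 3 and, by a narrow gap, Zfp982. Over all probe sets 2.25% were apart in this way. Since the same contrast chose the genes, nothing is read from that count.

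**Figure D1:**
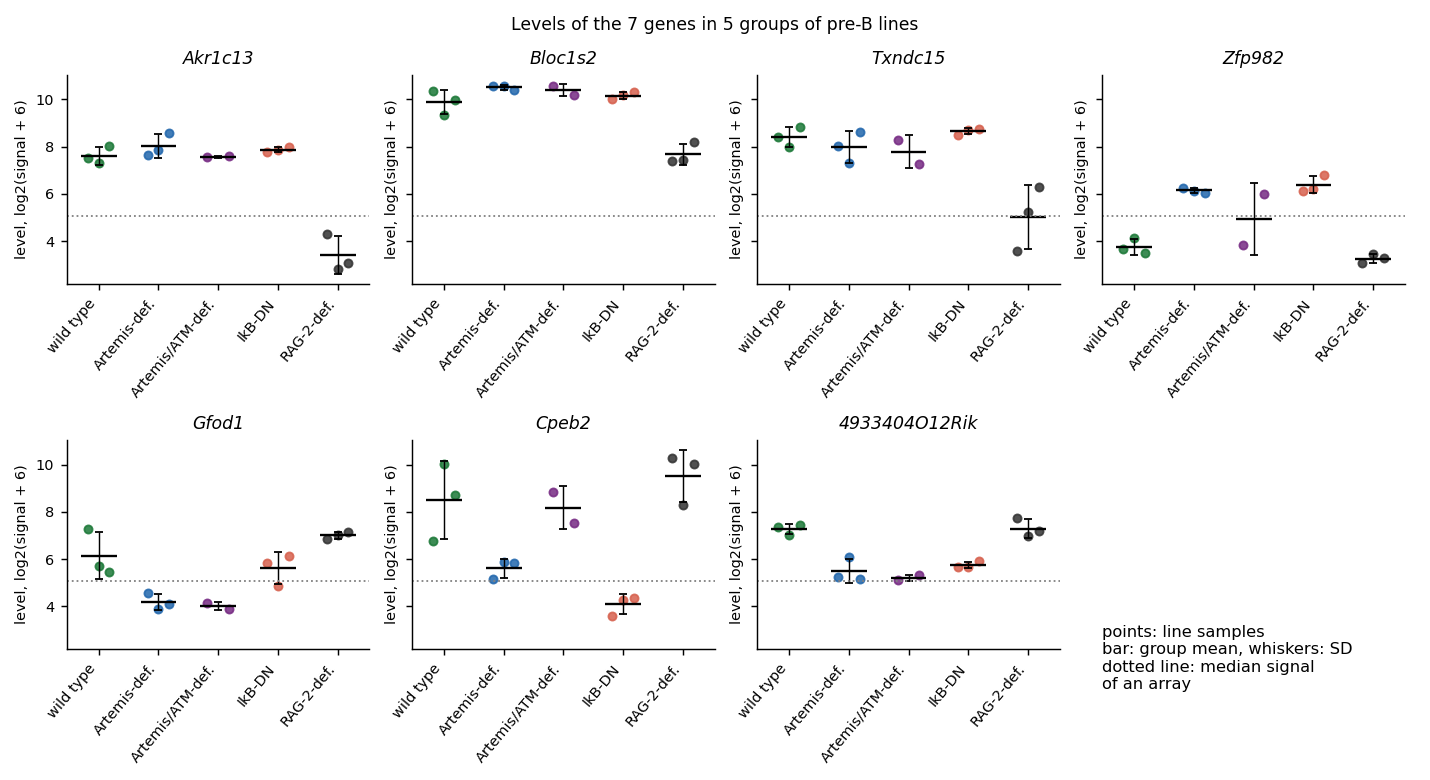
Level of each gene's representative probe set, log2(signal + 6), in every line sample. Points are samples, horizontal bars are group means, whiskers are SD and the dotted line is the highest median signal of a line array. Akr1c13, Bloc1s2 and Txndc15 were lower in RAG-2-deficient lines than in every other line, and the other 4 genes were spread over the other groups as well.

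The promoter windows of the first 3 genes are shown because in these genes each of the 4 other line groups had a mean log2 difference of 2.21 or more from RAG-2-deficient lines. They are RefSeq sequences on GRCm38.p6, from 250 bases before to 50 bases after the start of the gene. The window of Akr1c13 is chr13:4190937-4191236 on the + strand, that of Bloc1s2 is chr19:44146397-44146696 on the - strand, and that of Txndc15 is chr13:55714400-55714699 on the + strand. Each is written 5′ to 3′ along its gene. Capitals mark GGGCGG (a GC box) or the outline of an NF-kB site (3 G, any 5 bases and 2 C), searched on both strands.
Akr1c13: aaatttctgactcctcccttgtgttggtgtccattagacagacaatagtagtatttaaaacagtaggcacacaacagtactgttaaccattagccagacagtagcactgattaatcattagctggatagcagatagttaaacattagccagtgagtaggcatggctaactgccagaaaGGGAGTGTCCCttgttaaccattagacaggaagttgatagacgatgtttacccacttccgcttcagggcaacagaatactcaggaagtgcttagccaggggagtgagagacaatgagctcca
Bloc1s2: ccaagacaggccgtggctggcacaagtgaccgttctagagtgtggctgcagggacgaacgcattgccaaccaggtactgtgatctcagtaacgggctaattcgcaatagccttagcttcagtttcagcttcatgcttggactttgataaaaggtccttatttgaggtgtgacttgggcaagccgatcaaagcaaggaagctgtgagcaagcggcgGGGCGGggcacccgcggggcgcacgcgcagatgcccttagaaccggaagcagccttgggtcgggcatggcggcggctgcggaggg
Txndc15: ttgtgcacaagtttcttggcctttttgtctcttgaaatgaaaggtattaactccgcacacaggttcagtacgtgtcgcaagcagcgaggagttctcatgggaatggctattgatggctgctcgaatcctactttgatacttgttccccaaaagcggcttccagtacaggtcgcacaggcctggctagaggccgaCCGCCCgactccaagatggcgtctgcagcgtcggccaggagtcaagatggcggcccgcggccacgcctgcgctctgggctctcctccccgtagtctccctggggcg
Akr1c13 had 2 overlapping matches to the NF-kB outline, which start at bases 179 and 180 of the window, and none to GGGCGG. Bloc1s2 had 1 match to GGGCGG at base 216, and Txndc15 had 1 at base 195, on the other strand. The motif TATAAA, the core of promoters that bind TATA-binding protein, was not found in these 3 windows. Nor was the motif CCAAT, known for the factor NF-Y. The cyclic AMP element TGACGTCA and the antioxidant element TGACNNNGC had no match either. The E box CANNTG matched only in the window of Bloc1s2, at bases 23 and 243. Among all 32851 promoter windows 35.7% held the GC box, 50.8% the NF-kB outline, 13.6% the motif of TATA-binding protein, 37.4% that of NF-Y, 1.79% the cyclic AMP element, 12.4% the antioxidant element and 72.3% the E box. No searched motif was in all 3 windows.

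Akr1c13 encodes an aldo-keto reductase of the 1C family, enzymes that reduce carbonyl groups of steroids and other small molecules. Its probe set 1418672_at had signals of 177.1, 150.2 and 251.7 in wild type lines, 192.3, 226.5 and 377.6 in Artemis-deficient lines, 181.2 and 187.8 in Artemis- and ATM-deficient lines and 212.2, 226.9 and 249.2 in IkB-DN lines, against 14, 0.960 and 2.485 in RAG-2-deficient lines. The RAG-2-deficient signals lay below the array median of 26.84 to 27.67, and the other lines lay well above it. The log2 differences from RAG-2-deficient lines were 4.20 ± 0.35 (SE) in wild type, 4.62 ± 0.35 in Artemis-deficient, 4.17 ± 0.40 in Artemis- and ATM-deficient and 4.47 ± 0.35 in IkB-DN lines. Their size depends on the pseudocount added to each signal, here 6: with 32 they were 2.53 to 2.94, and with 1 they were 5.31 to 5.77. A further probe set, 1450455_s_at, is annotated to both Akr1c12 and Akr1c13, and its signals were 197.6 to 514.7 in the other lines, against 4.83 to 14.84 in RAG-2-deficient lines. That probe set cannot tell the signals of these 2 near-identical genes apart.

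Bloc1s2 encodes a subunit shared by BLOC-1 and BORC, complexes that build lysosome-related organelles and place lysosomes in the cell. Probe set 1429048_at had signals of 1292, 647.9 and 1006 in wild type lines, 1513, 1529 and 1349 in Artemis-deficient lines, 1519 and 1176 in Artemis- and ATM-deficient lines and 1037, 1143 and 1255 in IkB-DN lines, against 164.0, 165.8 and 288.4 in RAG-2-deficient lines. The gene was thus above the array median everywhere, and the lowest of the other lines, a wild type line, still exceeded the highest RAG-2-deficient line. The log2 differences were 2.21 ± 0.25 (SE) in wild type, 2.84 ± 0.25 in Artemis-deficient, 2.71 ± 0.28 in Artemis- and ATM-deficient and 2.49 ± 0.25 in IkB-DN lines.

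Txndc15 encodes a membrane protein with a thioredoxin domain, known from human and mouse genetics for a role in primary cilia. Probe set 1428256_at had signals of 335.0, 247.8 and 452.0 in wild type lines, 255.8, 152.1 and 387.5 in Artemis-deficient lines, 303.6 and 149.5 in Artemis- and ATM-deficient lines and 358.1, 407.2 and 423.5 in IkB-DN lines, against 5.82, 31.15 and 71.46 in RAG-2-deficient lines. The RAG-2-deficient lines differed widely among themselves, with an SD of 1.37 on the log2 scale, and still lay below every other line. The log2 differences were 3.40 ± 0.56 (SE) in wild type, 2.97 ± 0.56 in Artemis-deficient, 2.76 ± 0.62 in Artemis- and ATM-deficient and 3.63 ± 0.56 in IkB-DN lines. The second probe set of the gene, 1457599_at, did not pass the filter and had signals of 5.53 to 33.17 in the other lines and 6.38 to 13.14 in RAG-2-deficient lines, so it did not show the difference.

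**Figure D2:**
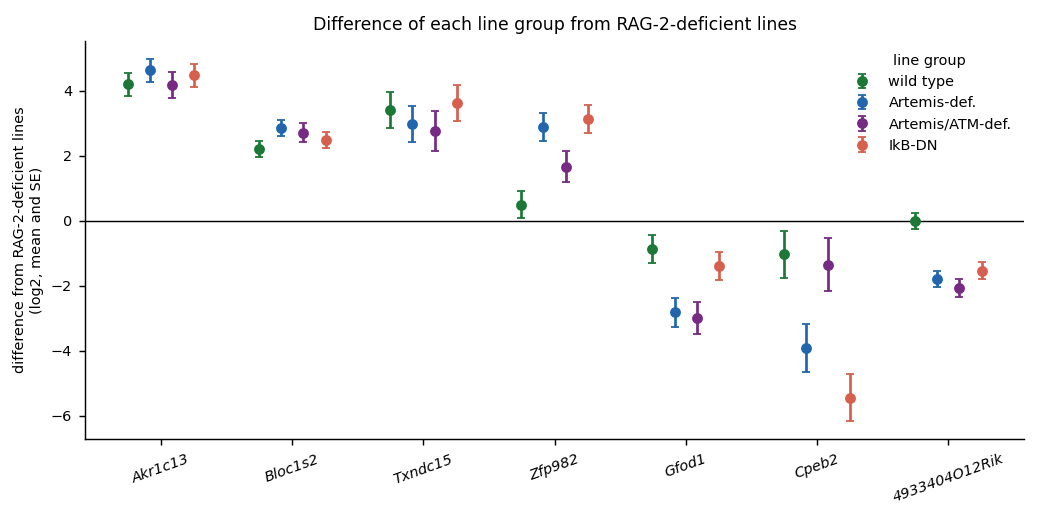
Mean log2 difference of each line group from RAG-2-deficient lines, with its SE from the fit, for the representative probe set of each gene. For Akr1c13, Bloc1s2 and Txndc15 the 4 groups lie together above 0, and for the other 4 genes they are spread out, with wild type lines nearest to 0.

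Whether the other 4 line groups differed from each other was tested with limma's moderated F-test. The RAG-2-deficient values enter it through the shared spread and through the filter on low signal, which counted all line samples. The other line samples were also among those that chose the genes, so counts of calls and p values among these groups are no independent support. Akr1c13 (adjusted p = 0.729), Bloc1s2 (0.315) and Txndc15 (0.659) did not pass this limma test. For Akr1c13 the widest difference between any pair of these groups was that of Artemis- and ATM-deficient minus Artemis-deficient lines, a log2 of -0.45 with a 95% interval of -1.31 to 0.41. For Bloc1s2 it was 0.63 (0.08 to 1.17) for Artemis-deficient minus wild type lines, and for Txndc15 it was -0.87 (-2.23 to 0.49) for Artemis- and ATM-deficient minus IkB-DN lines. These intervals leave room for differences of that size.

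In the remaining 4 genes the F-test was passed, by Zfp982 (limma adjusted p = 0.0114), Gfod1 (0.0285), Cpeb2 (0.0113) and 4933404O12Rik (0.00423). That is 4 of 7 genes, or 5 of 11 probe sets that passed the filter, while 7.38% of all probe sets were called by the same test. Without the IkB-DN lines only 4933404O12Rik kept its call, as 1 of 11 probe sets. Over all probe sets the test then called 45, against 1612 with these lines. Among these 4 genes, 3 were called for IkB-DN against wild type lines (8.33% of all probe sets), 2 for Artemis-deficient against wild type lines (0.502%), 1 for Artemis- and ATM-deficient against wild type lines (0.914%) and 1 for Artemis- and ATM-deficient against IkB-DN lines (6.7%). With limma 0 of the 4 were called for Artemis- and ATM-deficient against Artemis-deficient lines (0.283%), where 2 had an unadjusted p below 0.05, and 0 for IkB-DN against Artemis-deficient lines (2.05%), where 1 did.

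Zfp982 encodes a zinc finger protein. Probe set 1439065_x_at had signals of 6.70, 11.6 and 5.17 in wild type lines, 69.84, 64.57 and 60.55 in Artemis-deficient lines, 8.44 and 57.86 in Artemis- and ATM-deficient lines and 64.38, 68.66 and 105.3 in IkB-DN lines, against 2.46, 4.84 and 3.65 in RAG-2-deficient lines. Wild type and RAG-2-deficient lines were both below the array median, as was 1 of the Artemis- and ATM-deficient lines, so the gap between wild type and RAG-2-deficient lines lies among dim signals. The probe set passed the filter only through lines that lack Artemis. The log2 differences from RAG-2-deficient lines were 0.50 ± 0.43 (SE) in wild type, 2.88 ± 0.43 in Artemis-deficient, 1.66 ± 0.48 in Artemis- and ATM-deficient and 3.12 ± 0.43 in IkB-DN lines. With a pseudocount of 32 they were 0.16, 1.44, 0.76 and 1.63 in the same order of groups, and with 1 the wild type value was 0.89. The Artemis- and ATM-deficient value was 2.73 without replicate 1 of that group and 0.59 without replicate 2, and the wild type value was 0.31 without wild type replicate 2. Against wild type lines, Zfp982 was higher by a log2 of 2.62 ± 0.43 in IkB-DN lines (limma adjusted p = 0.00500) and by 2.39 ± 0.43 in Artemis-deficient lines (limma adjusted p = 0.0360), with every sample above every wild type sample. With a pseudocount of 32 these were 1.47 and 1.29. Wild type lines were near RAG-2-deficient lines here, so these 2 tests nearly repeat the differences that chose the gene. Their p values are no independent support. The call for Artemis-deficient lines was lost in 10 of 23 alternatives, with adjusted p values up to 0.132. Probe set 1459260_at, where it had values, was also higher in these 3 groups, with 22.91 to 59.35 in Artemis-deficient, 11.24 and 27.23 in Artemis- and ATM-deficient and 21.14 to 35.43 in IkB-DN lines, against 7.77 in 1 wild type line and 2.19 and 1.98 in RAG-2-deficient lines, but it was empty in 2 wild type lines and 1 RAG-2-deficient line, which the fit dropped. It did not pass the F-test (limma adjusted p = 0.269). The third probe set, 1436386_x_at, did not pass the filter and stayed at 10.29 or less in every line. A probe set annotated to both Gm13212 and Zfp982, 1456179_at, did not follow this order, with 23.12 to 73.41 in wild type lines and 40.64 to 102.0 in RAG-2-deficient lines. Whether 1439065_x_at also takes up signal from related zinc finger genes was not examined here.

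Gfod1 encodes a protein with a glucose-fructose oxidoreductase domain. Probe set 1455599_at had signals of 148.9, 45.85 and 37.56 in wild type lines, 17.76, 8.83 and 11.07 in Artemis-deficient lines, 11.64 and 8.82 in Artemis- and ATM-deficient lines and 51.07, 23.24 and 65.3 in IkB-DN lines, against 110.0, 122.7 and 135.6 in RAG-2-deficient lines. Artemis-deficient lines with and without ATM were below the array median, and 1 wild type line exceeded every RAG-2-deficient line. The log2 differences from RAG-2-deficient lines were -0.86 ± 0.44 (SE) in wild type, -2.82 ± 0.44 in Artemis-deficient, -2.99 ± 0.49 in Artemis- and ATM-deficient and -1.38 ± 0.44 in IkB-DN lines. The wild type value was -1.43 without wild type replicate 1 and -0.52 without wild type replicate 3. With a pseudocount of 32 the Artemis-deficient value was -1.80 and the Artemis- and ATM-deficient value -1.86. No single pair of the other groups was called. The nearest were Artemis- and ATM-deficient minus wild type lines at -2.12 ± 0.49 (limma adjusted p = 0.0669), Artemis- and ATM-deficient minus IkB-DN lines at -1.60 ± 0.49 (0.0710) and Artemis-deficient minus wild type lines at -1.95 ± 0.44 (0.0761). The F-test call itself was lost in 8 of 23 alternatives, with adjusted p values up to 0.144. The other probe set, 1442461_at, was dim, with signals of 8.76 to 30.04 over all lines, and did not pass the F-test (limma adjusted p = 0.635). Only RAG-2-deficient replicates 2 and 3, at 28.99 and 30.04, exceeded the highest array median of 27.67. This probe set thus passed the filter only with the group where it was highest.

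Cpeb2 encodes a cytoplasmic polyadenylation element binding protein, which binds messenger RNAs and controls their translation. Probe set 1434272_at had signals of 101.7, 1032 and 419.2 in wild type lines, 29.48, 52.81 and 50.78 in Artemis-deficient lines, 450.3 and 179.7 in Artemis- and ATM-deficient lines and 6.16, 13.6 and 14.75 in IkB-DN lines, against 1239, 303.7 and 1049 in RAG-2-deficient lines. Wild type and Artemis- and ATM-deficient lines overlapped RAG-2-deficient lines, while Artemis-deficient and IkB-DN lines lay below them. The log2 differences from RAG-2-deficient lines were -1.03 ± 0.72 (SE) in wild type, -3.92 ± 0.72 in Artemis-deficient, -1.35 ± 0.81 in Artemis- and ATM-deficient and -5.44 ± 0.72 in IkB-DN lines. The wild type value was -0.16 without wild type replicate 1 and -1.79 without wild type replicate 2, and it was -0.66 and -1.66 without RAG-2-deficient replicates 1 and 2. The Artemis- and ATM-deficient value was -0.70 without replicate 2 of that group. Against wild type lines, Cpeb2 was lower by a log2 of -4.41 ± 0.72 in IkB-DN lines (limma adjusted p = 0.00500). The IkB-DN signals were below the array median, so the size depends on the pseudocount. With 32 this difference was -3.21 and with 1 it was -4.91. For IkB-DN minus RAG-2-deficient lines the values were -4.16 with 32 and -5.96 with 1. Artemis- and ATM-deficient lines were higher than IkB-DN lines by 4.09 ± 0.81 (limma adjusted p = 0.0146), a call lost in 3 of 22 alternatives. Artemis-deficient minus wild type lines gave -2.88 ± 0.72 and did not pass (limma adjusted p = 0.110), nor did Artemis- and ATM-deficient minus Artemis-deficient lines at 2.57 ± 0.81 (limma adjusted p = 0.277). The other probe sets had the same order of group means. For 1458518_at the F-test was passed (limma adjusted p = 0.0311), with -3.29 ± 0.72 for IkB-DN minus wild type lines (0.0182) and 3.11 ± 0.81 for Artemis- and ATM-deficient minus IkB-DN lines (0.0407). For 1443017_at it was not (limma adjusted p = 0.115), and that probe set was empty in 1 IkB-DN sample, which the fit dropped.

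**Figure D3:**
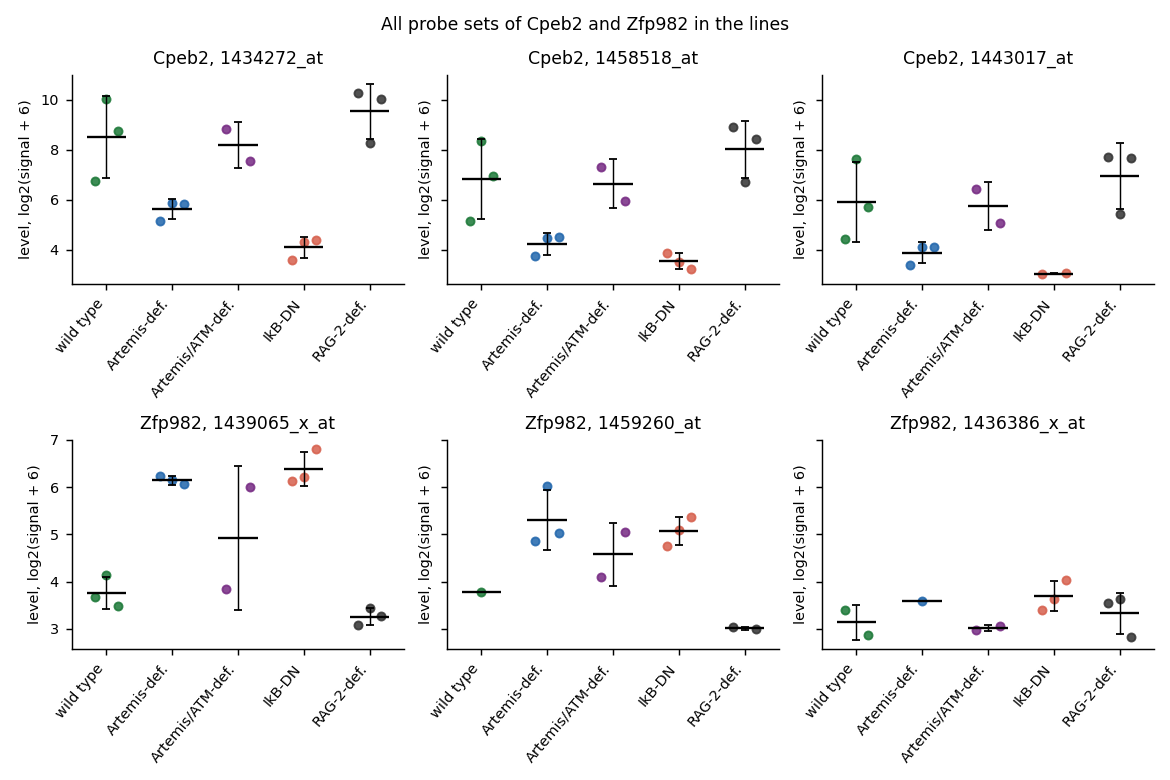
Level, log2(signal + 6), of the 3 probe sets of Cpeb2 (top) and the 3 of Zfp982 (bottom) in every line sample with a value. Bars are group means and whiskers SD. The Cpeb2 probe sets share an order of groups, and 2 of the Zfp982 probe sets are high in Artemis-deficient and IkB-DN lines while the third is dim throughout.

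4933404O12Rik is a long non-coding RNA in RefSeq. Probe set 1435827_at had signals of 158.8, 125.6 and 169.7 in wild type lines, 32.46, 61.67 and 29.56 in Artemis-deficient lines, 28.86 and 33.71 in Artemis- and ATM-deficient lines and 45.47, 45.22 and 54.19 in IkB-DN lines, against 206.0, 118.9 and 139.5 in RAG-2-deficient lines. The wild type lines lay within the range of RAG-2-deficient lines, and the 3 groups that lack Artemis lay below both without overlap. The log2 differences from RAG-2-deficient lines were -0.01 ± 0.25 (SE) in wild type, -1.79 ± 0.25 in Artemis-deficient, -2.08 ± 0.28 in Artemis- and ATM-deficient and -1.53 ± 0.25 in IkB-DN lines. Wild type and RAG-2-deficient lines were alike here, so tests against wild type lines nearly repeat the differences that chose the gene. Their p values are no independent support. Against wild type lines the gene was lower in all 3 groups that lack Artemis, by a log2 of -1.79 ± 0.25 in Artemis-deficient (limma adjusted p = 0.0136), -2.07 ± 0.28 in Artemis- and ATM-deficient (0.00822) and -1.53 ± 0.25 in IkB-DN lines (0.00509). The first call was lost without the IkB-DN lines (adjusted p = 0.0686) and the second without Artemis- and ATM-deficient replicate 2 (0.0579). The other probe set, 1430679_at, did not pass the filter, with signals of 10.69 to 28.9 in wild type lines and 1.94 to 14.29 in the 3 groups that lack Artemis, against 15.41 to 25.61 in RAG-2-deficient lines.

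Bone marrow pre-B cells were not used to choose the genes. Artemis-deficient marrow was set against RAG-1-deficient marrow, so that again cells with unrepaired breaks were compared with cells that make none. With limma 0 of 6 measured genes were called, 2 had an unadjusted p below 0.05, and 2.57% of all probe sets were called. The groups did not overlap in 4 of the 6 genes, against 48.9% of all probe sets. With so few genes nothing is read from that count. The marrow samples held transcripts of other cell types, and the summed signal of the 9 neutrophil and monocyte markers was 5.607e+04 to 6.2e+04 in Artemis-deficient and 3.324e+04 to 4.729e+04 in RAG-1-deficient marrow. In Artemis-deficient marrow T and NK markers summed to 2688 to 3471, against 1530 to 1929 in RAG-1-deficient marrow, and dendritic markers to 2453 to 3499, against 588 to 974.6 in RAG-1-deficient marrow. Erythroid markers summed to 792.3 to 1232 in Artemis-deficient and 1535 to 1573 in RAG-1-deficient marrow, and B lineage markers to 2.481e+04 to 3.45e+04 in Artemis-deficient and 4.418e+04 to 4.941e+04 in RAG-1-deficient marrow. The B lineage list includes Rag1 itself. Its log2 level was 12.55 ± 0.22 (SD, n = 2) in RAG-1-deficient and 10.55 ± 0.38 (SD, n = 2) in Artemis-deficient marrow. Whether its probe set lies in the deleted stretch was not examined here. The part of these cells in the marrow values was not tested, and in bulk samples fewer cells of a type cannot be told apart from less RNA per cell.

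Bloc1s2, lower in the RAG-2-deficient lines than in the other lines, had signals of 1448 and 1372 in Artemis-deficient marrow, against 776.7 and 932.1 in RAG-1-deficient marrow. Both Artemis-deficient samples were higher, by a log2 of 0.72 ± 0.17 (SE) that did not pass the test (limma adjusted p = 0.0748, 95% interval 0.33 to 1.11). Txndc15 had 476.4 and 608.0 in Artemis-deficient marrow, against 415.0 and 437.6 in RAG-1-deficient marrow, a difference of 0.33 ± 0.19 (limma adjusted p = 0.438). Both genes were therefore well above the array median of 46.85 to 47.82 in marrow without RAG-1. Akr1c13 did not pass the filter there, with signals of 23.38 and 49.06 in Artemis-deficient marrow, against 26.63 and 35.11 in RAG-1-deficient marrow, and the groups overlapped.

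Gfod1 had 207.8 and 260.9 in Artemis-deficient marrow, against 426.3 and 406.9 in RAG-1-deficient marrow. The groups did not overlap, and the difference of -0.81 ± 0.20 did not pass (limma adjusted p = 0.0821), though it did without Artemis-deficient replicate 2 (-0.97, limma adjusted p = 0.0265). 4933404O12Rik had 89.61 and 78.45 in Artemis-deficient marrow, against 63.87 and 43.61 in RAG-1-deficient marrow, a difference of 0.57 ± 0.29 (limma adjusted p = 0.378). Zfp982 had 55.75 and 26.62 in Artemis-deficient marrow, against 70.33 and 38.62 in RAG-1-deficient marrow, and Cpeb2 had 94.46 and 74.97 in Artemis-deficient marrow, against 76.28 and 91.27 in RAG-1-deficient marrow. Both overlapped between the groups, with differences of -0.34 ± 0.41 (limma adjusted p = 0.730) and 0.01 ± 0.26 (0.989).

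**Figure D4:**
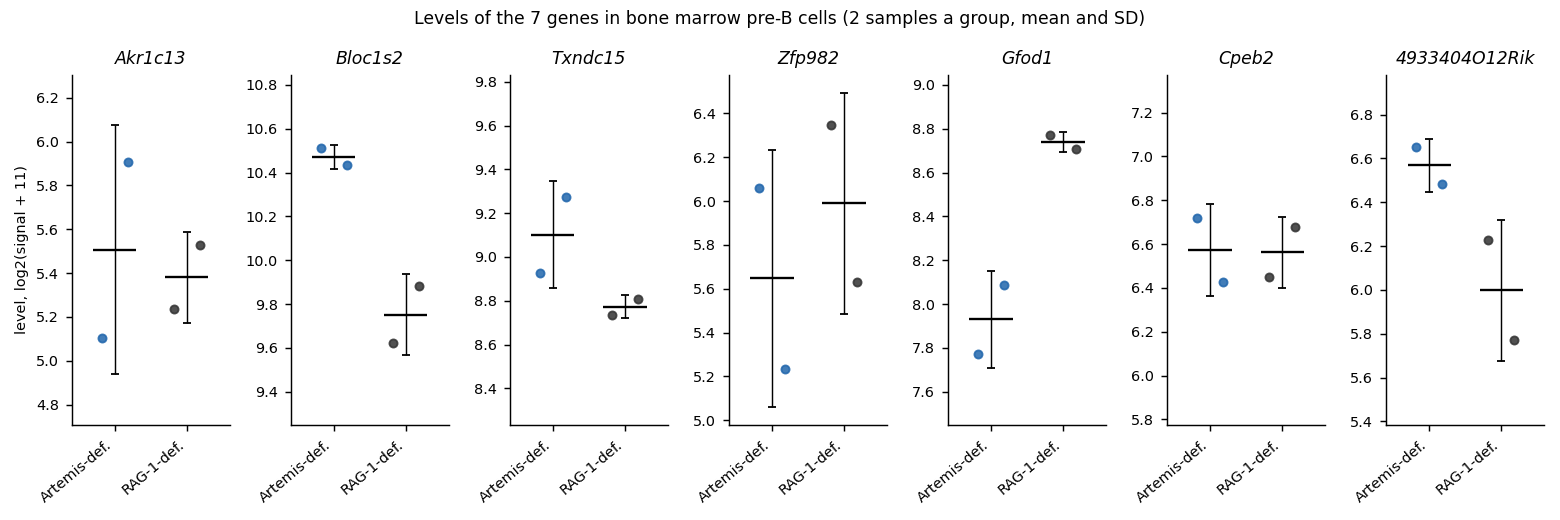
Level, log2(signal + 11), of each gene's representative probe set in the bone marrow samples. Points are samples, bars are means and whiskers SD (n = 2), and every panel spans the same range of log2 units. Bloc1s2, Txndc15, Gfod1 and 4933404O12Rik do not overlap between Artemis-deficient and RAG-1-deficient marrow, and none passed the test.

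Relatives of the 7 genes were compared between the mean of the 4 other line groups and RAG-2-deficient lines, a contrast in which 1.77% of all probe sets were called (0.967% higher and 0.798% lower) and the median difference was -0.01. Of 10 tested BLOC-1 and BORC subunits 1 was called, lower, with a median of -0.14 over the list. It was Bloc1s6 (pallidin), another BLOC-1 subunit, with a difference of opposite sign to that of Bloc1s2: its log2 level was 7.75 ± 0.02 in wild type, 7.86 ± 0.29 in Artemis-deficient, 7.83 ± 0.18 in Artemis- and ATM-deficient and 8.07 ± 0.06 in IkB-DN lines, against 8.83 ± 0.08 in RAG-2-deficient lines (SD, n = 3 each and 2 for Artemis- and ATM-deficient). The difference was -0.95 ± 0.11 (SE, limma adjusted p = 0.00134), and no other line reached the lowest RAG-2-deficient level of 8.74. Of 4 tested aldo-keto reductases 1 was called, lower, with a list median of 0.07 and 3 at an unadjusted p below 0.05. That was Akr7a5, an aldehyde reductase, at -0.97 ± 0.21 (limma adjusted p = 0.0426), a call lost in 11 of 21 alternatives. The widest of the list was Akr1e1, with a difference of the same sign as that of Akr1c13, at 2.01 ± 0.46, which did not pass (limma adjusted p = 0.0520).

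With limma 0 of 19 thioredoxin family genes were called (median 0.03, and 4 at an unadjusted p below 0.05), the widest being Txndc11, a protein of the endoplasmic reticulum, at -0.87 ± 0.22 (adjusted p = 0.0729). It passed without wild type replicate 2 (limma adjusted p = 0.0327) and without Artemis- and ATM-deficient replicate 1 (0.0430). For the CPEB family and the polyadenylation machinery limma called 0 of 10 (median -0.00, and 2 at an unadjusted p below 0.05), the widest being Sympk, a scaffold of the polyadenylation complex, at -0.85 ± 0.22 (adjusted p = 0.0734). Sympk passed without Artemis-deficient replicate 2 (limma adjusted p = 0.00845) or replicate 3 (0.0354). The 1 tested zinc finger gene named near Zfp982, Zfp991, gave -0.50 ± 0.61 (limma adjusted p = 0.757), and Gfod2, the paralog of Gfod1, gave -0.14 ± 0.25 (limma adjusted p = 0.832).

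The nearest genes in RefSeq order were examined next, up to 5 on each side, with places counted over genes that have a kept probe set. Akr1c13, Txndc15 and Gfod1 lie on chromosome 13, Cpeb2 and 4933404O12Rik on chromosome 5, Bloc1s2 on chromosome 19 and Zfp982 on chromosome 4. Of 67 neighbours tested 2 were called higher and 3 lower in the other lines, 7.46%, against 1.79% of genes over the whole array. Each of the 5 differed in the same direction as the gene it lies beside. Each of these 5 calls was lost in at least 1 alternative. The median over all tested neighbours had the sign of the gene for Txndc15 (0.053) and Gfod1 (-0.232). It had the opposite sign for Zfp982 (-0.136) and Cpeb2 (0.025). The part of gene position was not tested. Fv1, a gene of retroviral origin that restricts mouse leukaemia viruses, lies 2 places from Zfp982. Its log2 level was 5.14 ± 0.35 (SD, n = 3) in wild type, 5.91 ± 0.46 (n = 2, with 1 empty cell dropped) in Artemis-deficient, 5.30 ± 0.13 (n = 2) in Artemis- and ATM-deficient and 5.19 ± 0.19 (n = 3) in IkB-DN lines, against 3.48 ± 0.34 (n = 3) in RAG-2-deficient lines. The difference was 1.91 ± 0.22 (SE, limma adjusted p = 0.00196), and no other line with a value was as low as the highest RAG-2-deficient line. It did not pass with the empty cell set to a signal of 0 (adjusted p = 0.164). Fv1 was dim, with group means near or somewhat above the array median in the other lines and levels below it in RAG-2-deficient lines. It therefore passed the filter only through the other lines.

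Bst1, an ectoenzyme known from B cell progenitors, lies 2 places from Cpeb2 and was lower by -1.38 ± 0.24 (limma adjusted p = 0.0165), a call lost without RAG-2-deficient replicate 1 (0.103). Fbxl5, an iron-sensing subunit of a ubiquitin ligase, lies next to Cpeb2 and gave -0.73 ± 0.17 (limma adjusted p = 0.0499), a call lost in 15 of 21 alternatives. Pcbd2, a pterin dehydratase, lies next to Txndc15 and was higher by 0.71 ± 0.14 (limma adjusted p = 0.0268). Its call was lost without RAG-2-deficient replicate 1, 2 or 3 and without IkB-DN replicate 1 or 2, with adjusted p values up to 0.105. Mcur1, a regulator of mitochondrial calcium uptake, lies 4 places from Gfod1 and was lower by -0.67 ± 0.12 (limma adjusted p = 0.0191), a call lost without RAG-2-deficient replicate 2 or 3 (up to 0.0804). With limma 0 neighbours of Akr1c13, Bloc1s2 and 4933404O12Rik were called. The widest among them, named after its value was seen, was Akr1e1, an aldo-keto reductase 2 places from Akr1c13, at 2.01 ± 0.46 (limma adjusted p = 0.0520). The gene next to Akr1c13 in this order, Akr1c12, is its close paralog and was not tested, because its own probe set had no value in any RAG-2-deficient line or any Artemis- and ATM-deficient line. It had log2 levels of 4.62 to 5.82 in the 3 wild type lines, 4.66 and 5.05 in 2 Artemis-deficient lines and 2.66 in 1 IkB-DN line, mostly below the array median, and empty cells in the rest.

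**Figure D5:**
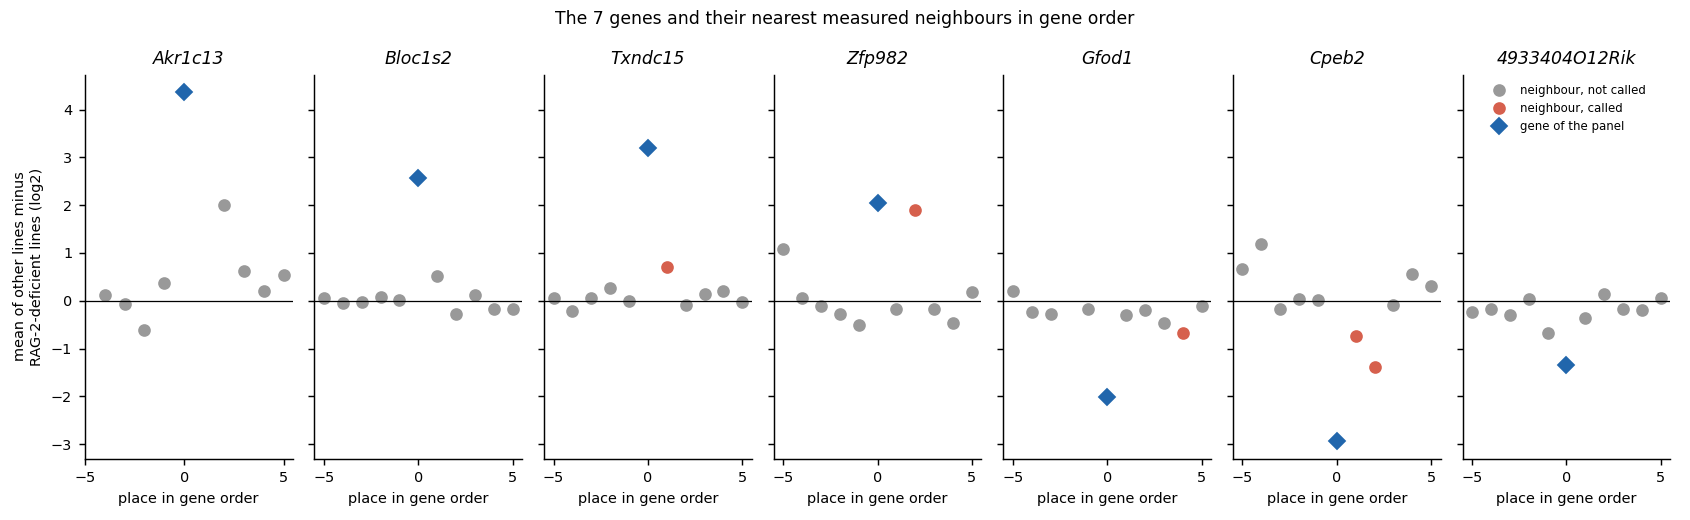
Mean log2 difference of the 4 other line groups from RAG-2-deficient lines, for each of the 7 genes (diamonds at place 0) and its neighbours with a kept probe set, by place in RefSeq gene order. Red points passed the limma test. The differences of the neighbours are smaller than that of the gene they lie beside, and Fv1 comes nearest, at 1.91 beside 2.04 for Zfp982.

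Genes whose pattern over the 14 line samples was nearest were found by the root mean square difference of centred log2 levels, over 9439 genes. For Bloc1s2 these were Pik3ap1, an adaptor of B cell receptor signalling, at 0.42 and Sgcb, a sarcoglycan, at 0.44, against a median of 1.14 over all genes. For Txndc15 they were Gm2a, a lysosomal activator protein, at 0.75 and Sgcb at 0.76 (median 1.52), and for Akr1c13 they were 3830406C13Rik at 0.94 and Pik3ap1 at 1.07 (median 1.87). Bloc1s2 itself was nearer to Akr1c13, at 0.92, than either. Sgcb was thus among the 2 nearest of Bloc1s2 and Txndc15, and Pik3ap1 of Bloc1s2 and Akr1c13, which rests in part on the difference that chose these genes.

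For Cpeb2 the nearest were Prdm1 (Blimp-1, the repressor that drives plasma cell differentiation) at 0.94 and Igkv6-20, a variable gene of the kappa light chain, at 1.12 (median 2.24). For 4933404O12Rik they were Lancl1, a glutathione-binding protein, at 0.36 and Pcbp4, an RNA-binding protein, at 0.43 (median 0.97). Gfod1 had Pcbp4 at 0.72 and Mcm6, a subunit of the replicative helicase, at 0.74 (median 1.25), and Zfp982 had Ahcyl2 at 0.66 and Trim16 at 0.70 (median 1.40). These distances describe likeness over samples that share arrays and groups, with no test.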

How the data were processed

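The authors deposited log10 signals for 44200 probe sets, and 14.7% of cells were empty. The base was inferred from the values. Arrays were read with Genechip Operating Software 1.2.0.037, per the labels; the sources used here do not give the summary method or the scaling. Signals were raised by a pseudocount (the 25th percentile, 6 in lines and 11 in marrow) and taken to log2. Lines and marrow were fitted apart. Probe sets were kept when at least 2 samples reached their array's median (21936 in lines, 19520 in marrow). Differences were tested, two-sided, with limma 3.58.1 in R 4.3.3 (lmFit, eBayes with a trend; 9 residual degrees of freedom in lines, 2 in marrow), with Benjamini-Hochberg adjustment over all kept probe sets and calls at an adjusted p below 0.05. The fit was tested on simulated data. The number of arrays limits the precision.

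The 7 genes and the lists were chosen with earlier results of these data known. Named are all probe sets of the 7 genes, called list members or else the widest, called neighbours (up to 4 per gene), and the 2 genes outside the 7 nearest in pattern. Of the probe sets, 34294 named 1 gene, 916 several and 8990 none, per the platform annotation. Alternatives were other pseudocounts, no filter, empty cells at 0, quantile normalization, no trend, first arrays, only the other 4 line groups, no IkB-DN lines and leaving out each sample. Gfod1 and Cpeb2 promoters were not used here. Figures used matplotlib 3.10.9 in Python 3.11.15.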

Additional observations from a re-analysis of the deposited data

Results flagged for a closer look

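4933404O12Rik had differences of opposite sign in the lines and in bone marrow when Artemis-deficient cells were set against the RAG-deficient control, with no overlap of the groups in either. The log2 difference was -1.79 for Artemis-deficient minus RAG-2-deficient lines and 0.57 for Artemis-deficient minus RAG-1-deficient marrow. The marrow difference did not pass the test (limma adjusted p = 0.378), and 48.9% of all probe sets did not overlap in marrow. The line difference chose the gene and has no test. The difference between the 2 settings was not tested. No group held 4 or more samples, so no sample was examined as far from its group.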

How the results depend on the processing

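The count of member probe sets called among the 4 other line groups, 5, was 3 with a pseudocount of 32 and 1 without the IkB-DN lines, and 2 to 5 when each line sample was left out in turn (2 without IkB-DN replicate 1, and 3 without IkB-DN replicate 3 or Artemis- and ATM-deficient replicate 1). Over all probe sets the F-test called 1612, against 45 without the IkB-DN lines and 344 to 2048 with a sample left out, the lowest values being those without an IkB-DN sample. The contrast of the other lines with RAG-2-deficient lines called 385, against 104 to 574, with 104 and 139 without RAG-2-deficient replicates 1 and 3. In marrow 0 to 1 members were called with a sample left out (Gfod1). Over all probe sets 501 were called in marrow, against 14 without the intensity trend and 0 to 1245 with a sample left out; the 0, from limma without RAG-1-deficient replicate 1, stood beside 1757 at an unadjusted p below 0.05. A group left with 1 sample was assumed to vary like the others. The cause of these shifts was not tested. The F-test calls of Zfp982 (adjusted p = 0.166), Gfod1 (0.144) and Cpeb2 (0.262) were lost without the IkB-DN lines, and Cpeb2's also without IkB-DN replicate 1 (0.0504). Signs turned in marrow for Zfp982, with -0.699 to 0.071 over left-out samples, and for Cpeb2, with -0.136 to 0.159 over left-out samples and -0.001 with quantile normalization. The count of 4 genes without overlap stayed at 4 without wild type replicate 3 and without the IkB-DN lines, both chosen after seeing the data. No paired analysis was possible because replicate numbers follow accession order and pair nothing.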
